A study of Homo sapiens with 4 samples.

Results

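The 9 genes described here make up the core of major histocompatibility complex (MHC) class I antigen presentation: HLA-B, HLA-C, HLA-E, HLA-F, B2M, TAP1, TAP2, TAPBP and ERAP1. They were read through every probe set that the platform annotation gives to one of those symbols alone, 29 of the 54613 probe sets on the array, in a table that named 19775 genes in this way. The genes were selected on their baseline levels and LPS minus untreated differences on these same 4 arrays. Their differences are therefore given as a description, with no test, and the tests below concern only genes outside this list.

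The cells were MKN45, an established line of human gastric epithelial cells that came from an adenocarcinoma, and every array carried RNA of that 1 line. The untreated group (2 arrays) received fresh medium, and the LPS group (2 arrays) received medium with 10 µg/ml of lipopolysaccharide from Helicobacter pylori, a bacterium of the stomach. RNA was taken from both at 8 h and measured on Affymetrix GeneChips. The series text speaks of 2 independent experiments, so the spread within a group is that of 2 arrays.

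Class I molecules display peptides from inside the cell to CD8+ T cells and to receptors of natural killer cells. A heavy chain (an HLA gene product) pairs with beta-2 microglobulin in the endoplasmic reticulum, where tapasin holds it at the peptide transporter TAP until a peptide of suitable length, often trimmed by ERAP1, is bound. Transcription of many of these genes is known to depend on nuclear factor kappa B (NF-kB) at kB sites, on interferon regulatory factors at the interferon-stimulated response element (ISRE), and on the NLRC5 and RFX complex at a further promoter module. Nearly all nucleated cells, gastric epithelium among them, carry class I molecules, and interferons raise them.

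The upstream sequences of the members are shown first, searched for letters that NF-kB and the interferon regulatory factors are known to read. The module of the NLRC5 and RFX complex was not searched for. RefSeq promoter sequences of GRCh38.p14 were given for 8 of the 9 genes, in 10 windows of 250 bases before an annotated start, and HLA-E was not among them. They were searched on both strands for GGGANNNNCC (kB), GAANNGAAA (the ISRE as it stands in class I heavy chain promoters) and GAAANNGAAA (the ISRE core). The motif letters were chosen with the member sequences in view. In the 5 windows below, written 5′ to 3′ on the strand of the gene, capitals mark every match to any of the 3.

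HLA-B (chr6:31357180-31357429, minus strand): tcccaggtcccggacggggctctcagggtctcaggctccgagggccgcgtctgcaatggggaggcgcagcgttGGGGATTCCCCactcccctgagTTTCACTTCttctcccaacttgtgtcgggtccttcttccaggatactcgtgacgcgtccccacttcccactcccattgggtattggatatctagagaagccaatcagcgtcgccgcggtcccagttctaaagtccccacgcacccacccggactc
HLA-C (chr6:31272093-31272342, minus strand): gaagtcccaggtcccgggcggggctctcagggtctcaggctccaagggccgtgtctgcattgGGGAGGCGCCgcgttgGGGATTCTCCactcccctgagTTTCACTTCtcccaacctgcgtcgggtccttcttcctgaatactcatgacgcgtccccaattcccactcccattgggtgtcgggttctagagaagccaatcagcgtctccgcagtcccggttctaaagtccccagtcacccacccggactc
HLA-F (chr6:29723184-29723433, plus strand): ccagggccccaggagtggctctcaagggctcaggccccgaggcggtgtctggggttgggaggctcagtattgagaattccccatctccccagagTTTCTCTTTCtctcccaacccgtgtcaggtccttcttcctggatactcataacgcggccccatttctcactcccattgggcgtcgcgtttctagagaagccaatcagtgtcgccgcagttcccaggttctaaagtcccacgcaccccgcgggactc
B2M (chr15:44711267-44711516, plus strand): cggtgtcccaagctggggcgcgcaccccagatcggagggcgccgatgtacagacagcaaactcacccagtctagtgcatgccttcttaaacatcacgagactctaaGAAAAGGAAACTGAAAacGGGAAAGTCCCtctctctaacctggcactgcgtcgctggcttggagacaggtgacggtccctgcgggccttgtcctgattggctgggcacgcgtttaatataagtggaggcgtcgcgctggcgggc
TAP1, second annotated start (chr6:32853705-32853954, minus strand): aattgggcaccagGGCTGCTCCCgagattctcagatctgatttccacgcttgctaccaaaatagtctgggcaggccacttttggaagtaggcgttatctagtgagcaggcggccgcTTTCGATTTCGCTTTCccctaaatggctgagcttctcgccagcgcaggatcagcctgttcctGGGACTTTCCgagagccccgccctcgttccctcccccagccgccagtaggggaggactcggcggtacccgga

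In HLA-B, 2 overlapping kB matches on opposite strands spanned bases -177 to -167 from the start, followed by a class I ISRE at -155 to -147. HLA-C held kB matches at -188 to -179 and -172 to -163 and the class I ISRE at -151 to -143. The HLA-B and HLA-C windows thus carried the same ISRE letters, TTTCACTTC on the gene's strand, at nearly the same distance. HLA-F held an ISRE core at -156 to -147 and no kB match in this window. In B2M the order was turned round, with 2 overlapping ISRE cores from -144 to -129 and 2 overlapping kB matches on opposite strands from -126 to -116. Starts of a gene are numbered by chromosome coordinate. TAP1 and ERAP1 lie on the minus strand, so the first start of each is the more downstream one. The window at the second TAP1 start held kB matches at -237 to -228 and -72 to -63 and 2 overlapping ISRE cores from -134 to -119. The window at the first TAP1 start held none of the 3 motifs. TAP2 held a class I ISRE at -63 to -55 that overlapped an ISRE core at -58 to -49. TAPBP held a kB match at -97 to -88 and 2 overlapping ISRE cores from -20 to -5. ERAP1 held a kB match at -73 to -64 of its first start and a class I ISRE at -180 to -172 of its second.

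Counted by gene, 6 of the 8 held a kB match and all 8 held either ISRE form in at least 1 window. Counted by window, 6 of the 10 held a kB match and 8 of the 10 either ISRE form. Over all 35116 windows of the same length in the RefSeq table, 22.6% held a kB match, 6.56% the class I ISRE, 3.02% the ISRE core, 9.08% either ISRE form, and 1.43% a kB match together with either ISRE form. Since the motif letters were chosen with the member sequences in view, nothing is read from the member counts beside these shares. A match describes letters in a window and was not measured as bound in these cells.

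**Figure D1:**
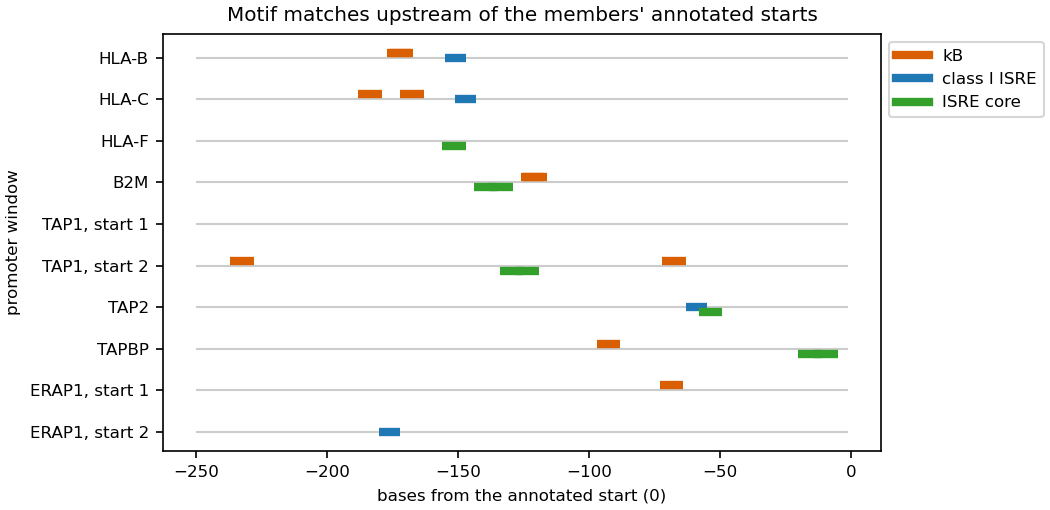
Motif matches in the 10 upstream windows of 8 member genes, by distance in bases from the annotated start (right end of each grey line); orange marks kB, blue the class I ISRE and green the ISRE core, with overlapping matches drawn together. HLA-B and HLA-C carry kB matches just upstream of an ISRE, and B2M has the opposite order. The first TAP1 start, the more downstream one, has no match.

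The arrays were closely matched. Median log2 levels were 7.004 to 7.034, and the arrays of a pair differed by a median of 0.0973 (untreated) and 0.0834 (LPS) per probe set. Levels of single markers are given here as untreated means. Most markers of the epithelial list were high: 11 of 12 lay above a log2 level of 9, up to 14.60 for KRT18. The other, the gastric product TFF2, read 7.40 untreated. The summed linear signal of the 12 was 116800 and 120100 untreated against 118900 and 119400 with LPS. Both LPS arrays lay above both untreated arrays for 3 of the 12 and below them for 3, GATA6 (-0.22) among the latter. None of the 12 passed (limma adjusted p = 0.32 for GATA6). Of 10 leukocyte markers 1 lay above that level, LYZ (12.74), which gastric cells also make. Only PTPRC (5.55) and CD14 (5.57) were under the level filter of 6.06 described with the processing. The remaining leukocyte markers lay above that filter. Their highest untreated mean was 8.39, in CD53, which read 8.56 and 8.87 with LPS. The summed linear signal of the leukocyte markers was 7938 and 8370 untreated against 7559 and 7615 with LPS, and 1280 and 1290 against 1350 and 1450 without LYZ. Of the 8 tested, CD53 (0.33) and FCER1G (0.22) had both LPS arrays above both untreated arrays and NKG7 (-0.15) and LYZ (-0.15) had both below, and none passed (limma adjusted p = 0.364 for CD53, 0.376 for FCER1G and 0.349 for LYZ). The 11 markers of fibroblasts and endothelium lay between 5.39 and 9.12, with sums of 1998 and 2169 untreated and 2246 and 2167 with LPS. Of the 10 tested, VIM (0.24), DCN (0.20) and PDGFRB (0.18) had both LPS arrays above both untreated arrays and LUM (-0.08) had both below. None of these 10 passed (limma adjusted p = 0.386 for VIM). The part of other cell types in the differences below was not tested. The arrays did register LPS: CCL20 was 2.93 higher on the log2 scale (95% interval 2.71 to 3.14, limma adjusted p = 9.82e-05) and CXCL8 1.73 higher (1.51 to 1.94, adjusted p = 0.00125), and these 2 chemokine genes give the scale against which the member differences can be read.

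HLA-B and HLA-C, the classical heavy chains, read higher on each LPS array than on either untreated array by all 7 of their probe sets, with differences of 0.06 to 0.29 on the log2 scale (median 0.15). Heavy chains of HLA-F did the same on 2 of 3 probe sets, and those of HLA-E on 1 of 3. The peptide transporter genes TAP1 and TAP2 were higher on all 4 probe sets above the level filter, by 0.09 to 0.25. The remaining TAP2 probe set, under that filter, differed by -0.07. B2M, the light chain that every class I molecule needs, was not higher on any of its 3 probe sets. For ERAP1 (-0.28) and TAPBP (-0.26), 1 probe set each was lower on both LPS arrays. Over all probe sets, both LPS arrays lay above both untreated arrays for 19.5% and below them for 21.1%. The members were chosen with this contrast known, so nothing is read from their counts. Each array measured RNA of a whole culture, so a change in the share of cells with a transcript and a change in RNA per cell cannot be told apart.

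All levels below are log2 values of a probe set on the deposited scale, and they are compared only within a probe set, since levels of different probe sets also depend on their probes. A probe set name ending in _x_at marks probes that can also bind other transcripts, and one ending in _s_at marks probes shared by several transcripts. All 7 HLA-B and HLA-C probe sets end in _x_at. Heavy chain genes are near-identical over much of their length, so these readings share target sequence and are not independent.

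HLA-B presents peptides to T cells and is the most polymorphic of the human class I genes. Its probe set 211911_x_at read 10.60 (array 1) and 10.78 (array 2) untreated and 11.00 (array 1) and 10.97 (array 2) with LPS, a difference of 0.29 (1.23-fold). Probe set 208729_x_at read 10.31 and 10.39 untreated and 10.53 and 10.53 with LPS, a difference of 0.19 (1.14-fold). Probe set 209140_x_at read 11.09 and 11.23 untreated and 11.29 and 11.33 with LPS, a difference of 0.15 (1.11-fold). On each of the 3 the groups did not overlap, and untreated array 2 lay nearer to the LPS arrays than untreated array 1 did. The gap between the groups was 0.19, 0.15 and 0.06 in that order, while the untreated arrays stood 0.18, 0.08 and 0.14 apart. For 209140_x_at the untreated pair was thus farther apart than the nearest arrays of the 2 groups.

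HLA-C presents peptides to T cells and is a main ligand of the killer immunoglobulin-like receptors of natural killer cells. Probe set 211799_x_at read 10.43 and 10.53 untreated and 10.65 and 10.65 with LPS, a difference of 0.17 (1.12-fold). Probe set 214459_x_at read 11.47 and 11.47 untreated and 11.55 and 11.57 with LPS, a difference of 0.09 with the pairs very close (SD 0.006 and 0.013). The remaining 2 were nearer to their spread: 216526_x_at read 11.28 and 11.34 against 11.37 and 11.39 (difference 0.07), and 208812_x_at read 11.87 and 11.84 against 11.89 and 11.94 (difference 0.06). On all 4 both LPS arrays were the highest, and the gap between the groups was 0.12, 0.08, 0.03 and 0.02 in that order.

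HLA-F is a non-classical heavy chain recognised by receptors of natural killer cells, partly without peptide. Probe set 204806_x_at read 10.66 and 10.85 untreated and 10.97 and 11.00 with LPS, a difference of 0.23 (1.17-fold). Probe set 221875_x_at read 10.81 and 10.95 untreated and 11.09 and 11.10 with LPS, a difference of 0.21 (1.16-fold). The groups were apart on both, with the untreated pair 0.20 and 0.14 apart and the LPS pair 0.03 and 0.01 apart. The third probe set, 221978_at, is the 1 HLA-F reading not marked as able to bind other transcripts, and it read 6.78 and 6.95 untreated against 6.77 and 6.85 with LPS. There the arrays of the groups overlapped and the difference was -0.06. The readings of HLA-F therefore disagreed by probe set type.

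HLA-E, a non-classical chain that shows leader peptides of other class I chains to the NKG2A receptor, differed least among the heavy chains. Probe set 200905_x_at read 10.73 and 10.73 untreated and 10.74 and 10.83 with LPS, a difference of 0.06 and a gap of 0.01. Probe set 217456_x_at read 10.17 and 10.18 against 10.13 and 10.22, and 200904_at, which is not marked as able to bind other transcripts, read 8.42 and 8.31 against 8.38 and 8.45 (difference 0.05). On both of these the groups overlapped. LPS array 2 was the highest array on all 3 HLA-E probe sets.

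**Figure D2:**
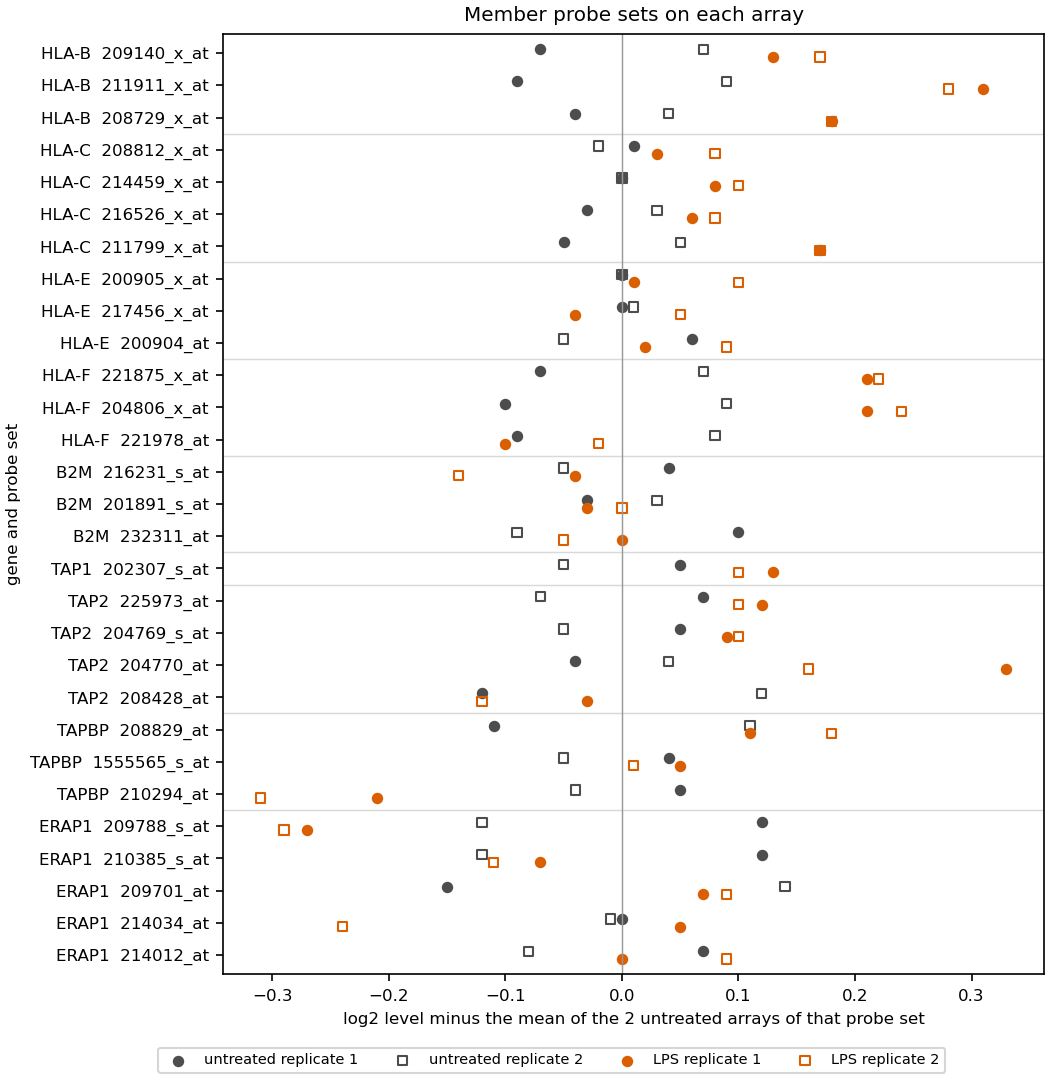
Log2 level of each of the 29 member probe sets on each array, minus the mean of the untreated arrays for that probe set; grey marks untreated and orange LPS arrays, filled circles replicate 1 and open squares replicate 2. The LPS arrays lie to the right of the untreated arrays for all HLA-B and HLA-C probe sets, for the HLA-F _x_at probe sets and for TAP1, while those of B2M overlap and TAPBP 210294_at and ERAP1 209788_s_at lie to the left.

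B2M encodes beta-2 microglobulin, the invariant partner of all the heavy chains. Probe set 216231_s_at read 13.63 and 13.54 untreated and 13.55 and 13.45 with LPS, a difference of -0.09, and 201891_s_at read 13.48 and 13.54 against 13.48 and 13.51, a difference of -0.02. The groups overlapped on both. The third, 232311_at, was under the level filter at 5.54 and 5.35 against 5.44 and 5.39, and its groups overlapped too. The light chain reading thus stayed within 0.09 of its untreated level. Probe sets 216231_s_at and 201891_s_at both lay at percentile 99.4 of mean level over all probe sets. Whether they could register, at that level, a rise of the 0.06 to 0.29 read for the classical heavy chains was not tested.

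TAP1 and TAP2 form the transporter that moves peptides from the cytosol into the endoplasmic reticulum. TAP1 had 1 probe set, 202307_s_at, which read 9.09 and 8.99 untreated and 9.17 and 9.14 with LPS, a difference of 0.11 (1.08-fold). TAP2 probe set 204770_at read 7.19 and 7.27 untreated and 7.56 and 7.39 with LPS, a difference of 0.25 (1.19-fold), the largest of the transporter readings, with LPS array 1 well above LPS array 2. Probe set 225973_at read 9.37 and 9.23 against 9.42 and 9.40 (difference 0.11), and 204769_s_at read 7.95 and 7.85 against 7.99 and 8.00 (difference 0.09). On these 4 the groups did not overlap, but the gap was 0.12 for 204770_at and only 0.03 to 0.05 for the others, less than the 0.10 to 0.14 between their untreated arrays. The fourth TAP2 probe set, 208428_at, lay under the level filter, with overlapping groups and a difference of -0.07.

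TAPBP encodes tapasin, which bridges the heavy chain to the transporter and edits the bound peptide. Its 3 probe sets did not go the same way. Probe set 208829_at read 10.14 and 10.36 untreated and 10.36 and 10.43 with LPS, a difference of 0.15 in which untreated array 2 and LPS array 1 were equal to 2 decimals. Probe set 210294_at read 6.88 and 6.79 untreated and 6.62 and 6.52 with LPS, a difference of -0.26 with a gap of 0.17 between the groups. Probe set 1555565_s_at read 8.03 and 7.94 against 8.04 and 8.00, with overlap. Whether the 2 outer probe sets read different transcripts of the gene was not tested.

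ERAP1 encodes the aminopeptidase that trims peptides in the endoplasmic reticulum to class I length. Probe set 209788_s_at read 9.74 and 9.50 untreated and 9.35 and 9.33 with LPS, a difference of -0.28, with both LPS arrays under both untreated arrays by at least 0.16. Probe sets 210385_s_at (7.75 and 7.51 against 7.56 and 7.52) and 209701_at (6.70 and 6.99 against 6.92 and 6.94) overlapped between groups, with differences of -0.09 and 0.08. The untreated arrays of these 3 stood 0.24 to 0.29 apart, and untreated array 1 was the higher on 2 of them and the lower on the other. The remaining 2, 214034_at and 214012_at, lay under the level filter, with overlapping groups.

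Over all 29 member probe sets the median difference was 0.06, with 20 above and 9 below zero, from -0.28 to 0.29; over all 54613 probe sets the median was 0.0016. Both LPS arrays lay above both untreated arrays for 15 members and below them for 2, against 19.5% and 21.1% of all probe sets. The members were chosen with this contrast known, so these shares are printed side by side and nothing is read from them. The limma fit called 3 of the 38229 probe sets above the level filter at an adjusted p under 0.05 (0.00785%). At an unadjusted p under 0.05 in limma, 1411 of the tested probe sets were higher (3.69%) and 3066 lower (8.02%). No such count is given for the members, since they were selected on this contrast.

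The 10 HLA probe sets with both LPS arrays highest all lay in the band of signal described next. They are picked here by the contrast itself. The figures for that band therefore describe the array, and nothing about the members is read from them. At mean log2 levels of 10 to 12, which held 12 member probe sets, the median difference of all 4884 probe sets was -0.05, and 13.6% had both LPS arrays above both untreated arrays. For the 496 _x_at probe sets of that band the median was -0.03 and the share 16.5%. The median over all probe sets was 0.015 at levels up to 6.06, 0.017 from there to 8, -0.026 from 8 to 10 and -0.021 above 12. The 9 _x_at probe sets of HLA-B, HLA-C and HLA-F had a median difference of 0.17. Their median on each array, relative to the untreated mean, was -0.049 and 0.049 on untreated arrays 1 and 2 and 0.172 and 0.167 on LPS arrays 1 and 2. The untreated arrays thus differed by nearly as much as separates untreated array 2 from the LPS arrays, with untreated array 1 the lowest. For the transporter probe sets above the level filter the order of the untreated arrays was the opposite, at 0.052 and -0.052, with 0.123 and 0.103 on the LPS arrays.

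**Figure D3:**
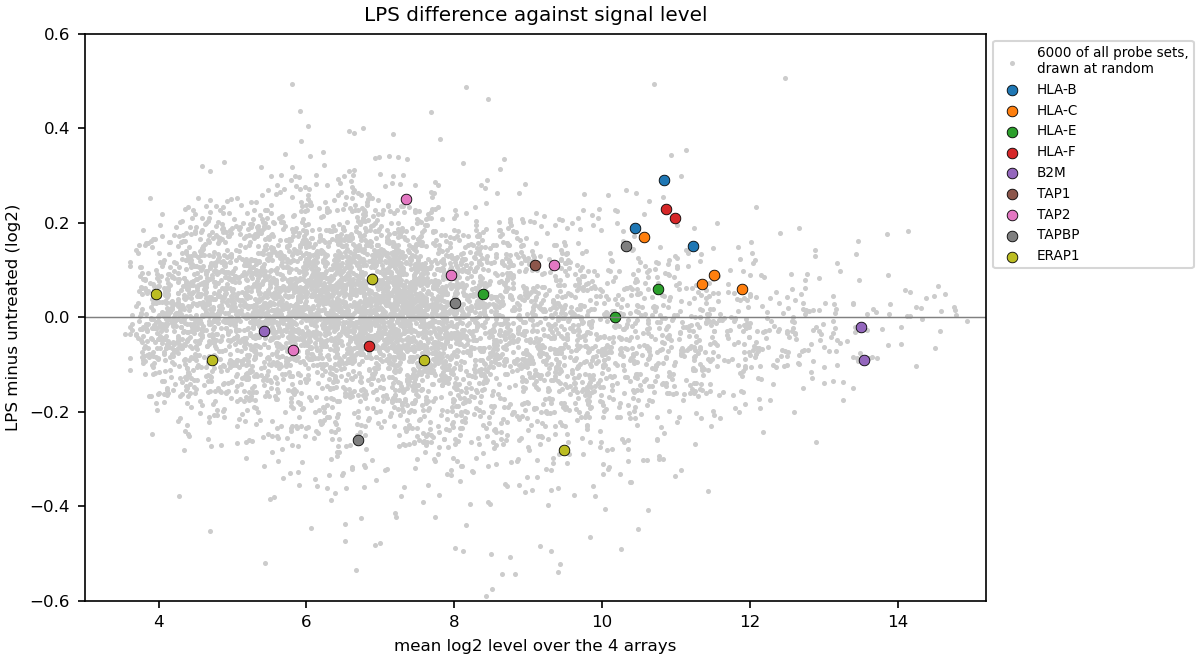
LPS minus untreated difference (log2) against the mean log2 level over the 4 arrays; small grey points are a random draw of all probe sets (a few beyond the axis are not drawn) and large coloured points are the 29 member probe sets. HLA-B and HLA-F _x_at probe sets lie at 0.15 to 0.29 in the range from 10 to 12, where the median of all probe sets is -0.05, and all 3 B2M probe sets lie below zero, 2 at the right and 1 at the left.

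How the arrays were scaled moved most members by a few hundredths. Over 8 settings (the deposited values, 3 other scalings and each array left out), all 3 HLA-B probe sets were higher in 8 of 8, between 0.08 and 0.39, and the 4 HLA-C probe sets between 0.03 and 0.22. The HLA-F _x_at probe sets ranged from 0.13 to 0.32, TAP1 from 0.06 to 0.17 and the 3 TAP2 probe sets above the level filter from 0.04 to 0.33, all higher in 8 of 8. HLA-E 217456_x_at was higher in 5 of 8 (-0.05 to 0.06) and HLA-F 221978_at in 1 of 8 (-0.14 to 0.03). B2M 216231_s_at was lower in all 8 (-0.14 to -0.04) and 201891_s_at was higher in 3 (-0.05 to 0.02). TAPBP 210294_at (-0.32 to -0.21) and ERAP1 209788_s_at (-0.40 to -0.16) were lower in all 8. These settings reuse the same arrays and are no independent check. Where both LPS arrays lie on one side of both untreated arrays, leaving out 1 array cannot turn the sign, so only the 3 other scalings could have done so.

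**Figure D4:**
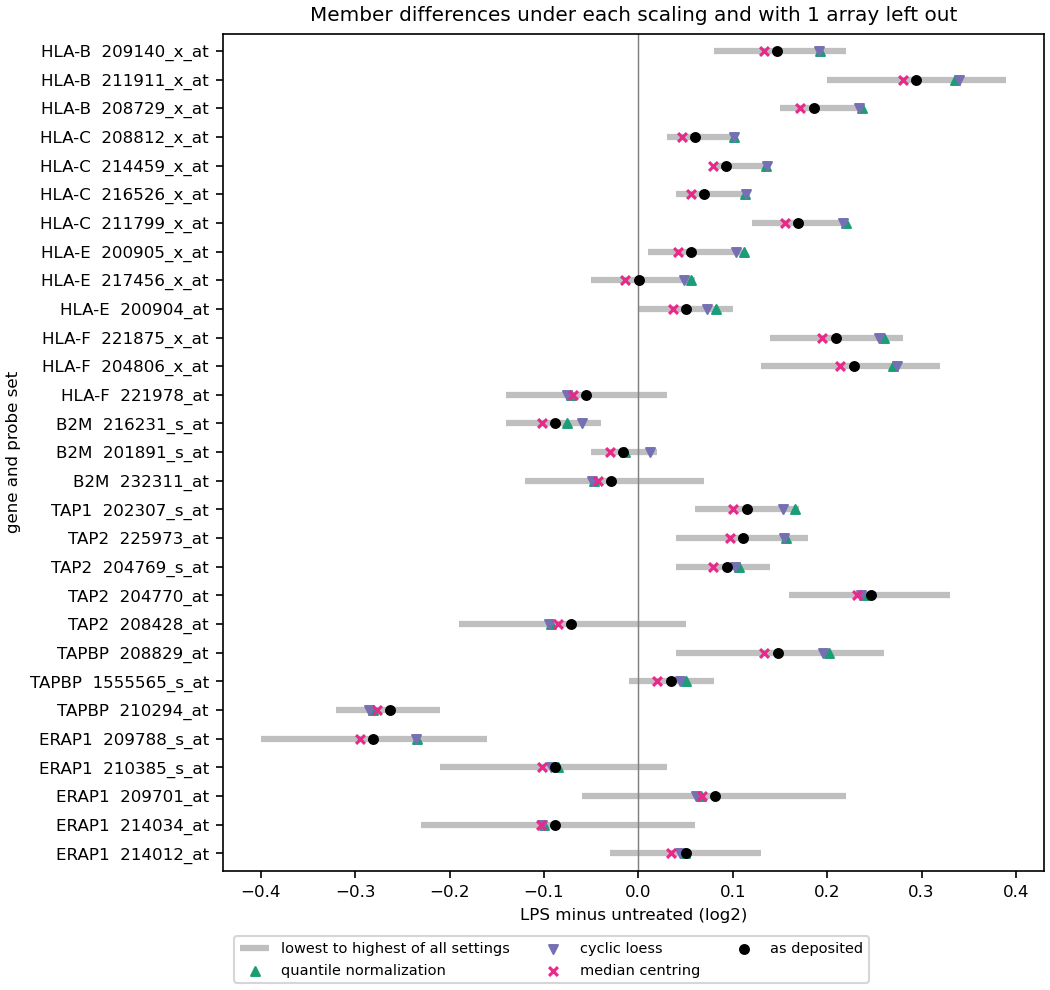
LPS minus untreated difference (log2) of each member probe set on the deposited values (black), after 3 other scalings (coloured), and its lowest to highest value when single arrays are also left out (grey bars). The bars of HLA-B, HLA-C, TAP1 and the HLA-F _x_at probe sets stay right of zero, that of B2M 216231_s_at stays left, and the bars of HLA-E 217456_x_at and B2M 201891_s_at cross it.

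The partner genes of the pathway, 87 in 9 lists, were tested in the same fit with 1 probe set per gene. Of these, 77 had a probe set of their own, 74 passed the level filter, and 0 passed the limma threshold in either direction, where 4 of 16252 genes passed (0.0246%), all higher. At an unadjusted p under 0.05, 6 partner genes were higher and 3 lower in limma, against 3.72% and 7.91% of all genes. These were HLA-G and HLA-J among the other class I chains, GANAB and HSPA5 among the loading partners, NFKB1 among the regulators and HLA-DOB in the class II pathway on the higher side, and the regulators RFX5, IRF2 and USF1 on the lower side, while the other 5 lists held none. Both LPS arrays lay above both untreated arrays for 17 and below them for 18, against 19.7% and 25.7% of all genes tested. The median difference of the partner genes was 0.015, and that of all genes tested -0.005. In the sentences that follow, intervals are 95% intervals of the fitted difference and p-values are limma's, adjusted over all genes tested.

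Among class I chains outside the member list, 5 genes were tested and none passed. HLA-G, a non-classical chain best known from the placenta, was 0.18 higher (0.01 to 0.35, adjusted p = 0.415), and HLA-J, a class I pseudogene, was 0.21 higher (0.05 to 0.38, adjusted p = 0.349). HLA-J read 10.13 and 10.22 untreated and 10.36 and 10.41 with LPS. Both genes were read by _x_at probe sets, 4 for HLA-G and 1 for HLA-J, and on all 5 both LPS arrays were above both untreated arrays. A pseudogene of the family and a placental chain thus read higher by amounts inside the range of HLA-B, and how far these probe sets share signal with it was not tested. FCGRT, the neonatal Fc receptor chain, which also pairs with beta-2 microglobulin, read lower on both LPS arrays (-0.15), and it is named here after its value was seen. Of the stress ligands with a class I fold, which are seen by the activating receptor NKG2D, 4 were tested and none passed: ULBP2 differed by 0.12 (-0.06 to 0.29, adjusted p = 0.554) and MICA by 0.10 (-0.09 to 0.28, adjusted p = 0.663).

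The peptide loading partners were 10 chaperones, translocon subunits and peptidases of the endoplasmic reticulum, and none passed. On 5 of the 10 both LPS arrays were above both untreated arrays, and on none below, where all genes tested gave 19.7% above and 25.7% below. The list was chosen with earlier results of these data known and is small, so nothing particular to it is read from these counts. GANAB, a glucosidase subunit that trims the glycan of new heavy chains, read 11.83 and 11.88 untreated and 12.01 and 12.03 with LPS, 0.17 higher (0.05 to 0.28, adjusted p = 0.333). HSPA5, the chaperone BiP, differed by 0.09 (0.00 to 0.17, adjusted p = 0.426). The other 3 of the 5 are named after their values were seen: CALR, the chaperone calreticulin of the loading complex, differed by 0.27 with its LPS arrays far apart at 11.66 and 12.07 (adjusted p = 0.432), and the translocon subunits SEC61A1 and SEC61B by 0.14 and 0.10.

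The genes of peptide supply gave small differences, and none passed. The immunoproteasome subunits PSMB8 and PSMB9, which replace catalytic subunits of the standard proteasome and are encoded beside TAP1 and TAP2, differed by 0.01 (-0.18 to 0.20, adjusted p = 0.979) and 0.03 (-0.17 to 0.23, adjusted p = 0.922). PSMB8 read 10.20 and 10.09 untreated and 10.23 and 10.08 with LPS, so its replicates stood farther apart than its group means. PSMB10, the third such subunit, differed by -0.12 (-0.29 to 0.06, adjusted p = 0.566), and POMP, the assembly factor, by 0.04 (-0.05 to 0.13, adjusted p = 0.676). The catalytic subunits PSMB6 and PSMB7 of the standard proteasome differed by -0.09 (-0.20 to 0.01, adjusted p = 0.461) and -0.12 (-0.25 to 0.02, adjusted p = 0.467). Of 8 cytosolic peptidases, which destroy most peptides before transport, none passed. IDE, the insulin-degrading enzyme, differed by -0.12 (-0.28 to 0.03, adjusted p = 0.484) and NPEPPS, the puromycin-sensitive aminopeptidase, by 0.13 (-0.03 to 0.28, adjusted p = 0.489).

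The 17 transcription regulators of class I genes that were tested differed in both directions, and none passed. NFKB1, which encodes the p50 subunit of NF-kB and its precursor, read 9.56 and 9.58 untreated and 9.81 and 9.90 with LPS, 0.28 higher (0.11 to 0.45, adjusted p = 0.32). IRF1, an activator at the ISRE, read 8.20 and 8.15 against 8.28 and 8.46, 0.20 higher (-0.01 to 0.41, adjusted p = 0.435). On these 2 genes the LPS arrays were the highest. RFX5, a subunit of the RFX complex at class I and class II promoters, read 10.35 and 10.23 untreated and 10.03 and 10.03 with LPS, a difference of -0.26 (-0.43 to -0.09, adjusted p = 0.327). NLRC5, the class I transactivator, read 8.09 and 7.96 against 7.92 and 7.70, a difference of -0.22 (-0.45 to 0.02, adjusted p = 0.446). On both of these the LPS arrays were the lowest, as they were on 8 of the 17 regulators, where the share over all genes tested was 25.7%. From counts this small nothing particular to the list is read. RELA, the p65 subunit of NF-kB, differed by 0.02 (-0.15 to 0.18, adjusted p = 0.947).

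The receptors and kinases of the interferon pathways, 9 genes, also held none that passed. IFNAR1, a chain of the type I interferon receptor, differed by 0.16 (-0.03 to 0.35, adjusted p = 0.474) and IL10RB, a shared chain of the interferon lambda receptor, by -0.15 (-0.32 to 0.03, adjusted p = 0.478). Of 13 genes of the MHC class II pathway, best known from professional antigen-presenting cells, none passed. HLA-DOB, a modulator of class II loading, differed by 0.23 (0.06 to 0.41, adjusted p = 0.349) and HLA-DQA1, a class II alpha chain, by 0.19 (-0.01 to 0.39, adjusted p = 0.433).

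**Figure D5:**
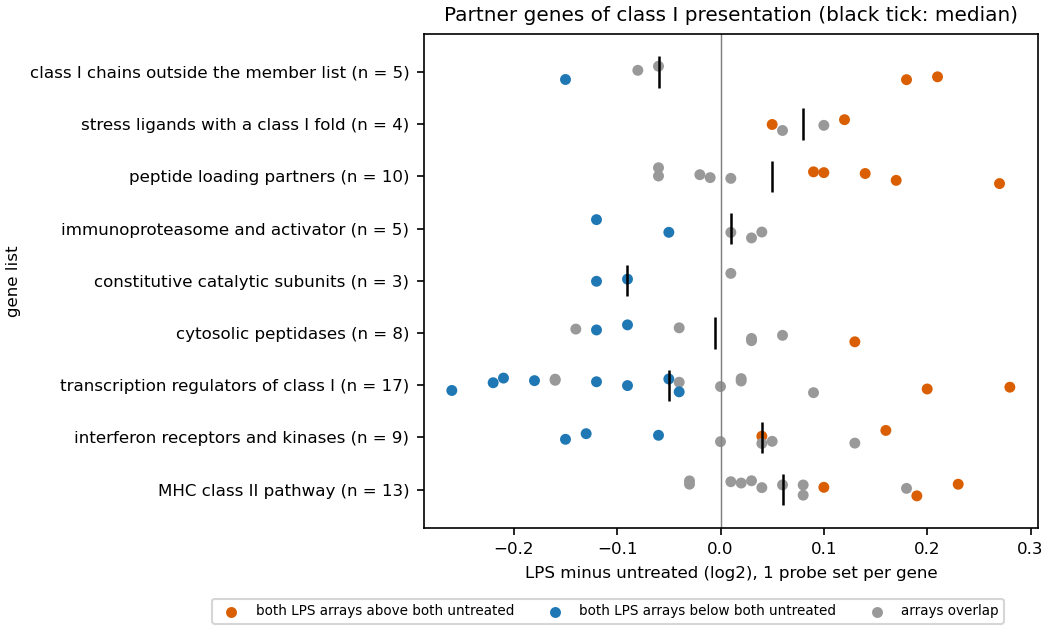
LPS minus untreated difference (log2, 1 probe set per gene) of the 74 tested partner genes in 9 lists; orange marks genes with both LPS arrays above both untreated arrays, blue those with both below, grey those whose arrays overlap, and black ticks the list medians. None of the genes passed the threshold, and differences run from -0.26 (RFX5) to 0.28 (NFKB1).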

How the data were processed

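The deposited values were taken as log2 levels from their range over 54675 probe sets. The submitters' processing notes name MAS5 and RMA, without versions and without saying which of them made the values. Arrays scaled to nearly equal distributions cannot show a shift of all transcripts one way. Control probe sets (62) were not used. Of the other 54613, 41091 carried a single symbol, 1801 several and 11721 none, and genes were named from the first kind only. Probe sets with a mean under the 30 percentile (6.06) were not tested, which left 38229 probe sets and 16252 genes, each gene read by its probe set of highest mean.

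LPS and untreated arrays were compared with limma 3.58.1 in R 4.3.3 (lmFit, eBayes with an intensity trend, no replicate block), two-sided, with Benjamini-Hochberg adjustment over everything tested and a threshold of 0.05. The moderated test had 7.06 degrees of freedom, and precision is limited by the number of arrays. The procedure was tested on simulated data. The members, partner lists and motifs were chosen with earlier results of these data known. All members were named. From a partner list, any gene past the threshold was to be named, and otherwise the pair with the smallest unadjusted p; NLRC5, IRF1, RELA, PSMB8, PSMB9, CXCL8 and CCL20 were always to be named. Alternatives changed the filter (none, 50 percentile), the scaling (quantile, median centring, cyclic loess), the variance model (no trend, robust), the threshold (0.1), the probe sets taken for a gene, the pairing and the arrays included.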

Additional observations from a re-analysis of the deposited data

How the results depend on the processing

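None of the partner genes passed the limma threshold under any alternative run. The count of probe sets called over the whole array was 3 and became 5 with a filter at the 50 percentile, 8 after quantile normalization, 17 after median centring, 8 after cyclic loess, 5 with robust eBayes, 9 at an adjusted p under 0.1, and 2 to 11 with 1 array left out (11 without untreated replicate 1). With the replicate number as a replicate block it stayed at 3 in limma, and 0 partner genes were called. The labels do not say that a number marks a shared experiment. The deviations of same-numbered arrays correlated at r = 0.214 over 38229 probe sets, with 2 pairs. The median difference of the members, 0.06, was 0.101 after quantile normalization and after cyclic loess, and 0.046 to 0.092 with 1 array left out. Leaving out 1 of 2 arrays cannot move a difference by more than the pooled SD of the pairs, so it shows nothing about stability by that measure. Of the values given per member gene (brightest probe set), 10 moved by more than that SD under another scaling or choice of probe sets. HLA-C went from 0.06 to 0.101 after quantile normalization and after cyclic loess, and to 0.098 as the mean of its probe sets. HLA-E became 0.112 after quantile normalization, and TAPBP -0.027 as the mean of its probe sets. Without _x_at and _s_at probe sets, HLA-F became -0.055 and ERAP1 0.081. HLA-B, HLA-C and TAP1 have no probe set of another type, so no value exists for them there. Among the partner genes, IDE turned to 0.002 and NPEPPS to -0.054 as the mean of their probe sets, by which IFNAR1 became 0.04, PSMB7 -0.014 and IRF1 0.107, HLA-DOB became 0.076 without _x_at and _s_at probe sets, PSMB8 turned to -0.005 after median centring, and with 1 array left out RELA ranged from -0.046 to 0.08, PSMB8 from -0.069 to 0.087 and PSMB9 from -0.041 to 0.098. The cause of these moves was not tested. With 2 arrays per group and a spread of about 0.1 within a pair, differences of the size seen in the members lie close to what these arrays resolve.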
